A study of Rattus norvegicus with 6 samples.

Results

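Transcripts of the bone morphogenetic protein (BMP) and transforming growth factor beta (TGF-beta) pathway were followed in whole-organ cultures of rat pituitary given 10 nM gonadotropin-releasing hormone (GnRH), against control cultures. The 36 genes were chosen by symbol: BMP, GDF and TGF-beta ligands, their receptors, the Smad proteins, secreted or membrane antagonists and the Id genes, without the activin and inhibin group. A probe set is a group of array probes that together report 1 transcript. Of the 36 genes, 34 had at least 1 probe set that the array annotation assigned to that symbol alone, and these genes held 59 of 31042 probe sets. Bmpr1b and Tgfbr2 had none and are not analysed here. For each gene the probe set of highest mean was taken, and the same was done for the 14217 named genes of the array used as background.

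BMPs and TGF-betas are secreted dimers that bring together type I and type II receptor kinases on the cell surface. The type I receptor then phosphorylates receptor Smads, Smad1, Smad5 and Smad9 on the BMP side and Smad2 and Smad3 on the TGF-beta side, which join Smad4 and enter the nucleus. Id1, Id2 and Id3 are widely used as readouts of BMP signalling, and Smad6, Smad7 and Bambi are induced as feedback inhibitors. In the pituitary, BMP4 is known for its role in forming the gland, and BMP ligands act on gonadotropes, the cells that carry the GnRH receptor and make the gonadotropins LH and FSH, in part through the FSH beta subunit gene.

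The series held 6 samples with 1 single-colour array each: 3 GnRH samples (GnRH 1 to 3) and 3 controls (control 1 to 3). The labels used here give no strain, age or sex of the animals and no time of treatment. They also do not say whether samples of a group came from separate cultures, so the spread behind each p-value may be technical. Every value below is a log2 array intensity and every difference is the GnRH mean minus the control mean on that scale. Values of different genes come from different probes and were not compared as levels.

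Control 3 stood apart from the other controls, and this touches many of the values below. Its log2 values correlated with those of controls 1 and 2 at 0.983 and 0.986 over the probe sets of the array, while controls 1 and 2 correlated at 0.994 and control 3 correlated with the GnRH arrays at 0.9901, 0.9878 and 0.9905. Xist, the X-inactivation RNA of female cells, had 9.73, 9.16 and 9.49 with GnRH and 3.91, 3.66 and 9.77 in controls 1 to 3, so control 3 was the 1 control at the level of the GnRH arrays. For part of the genes, differences are therefore also given without control 3 and against control 3 alone. These had opposite signs in 15 of the 34 genes, beside 6622 of the 14217 named genes. In such genes the difference over all arrays can lie near 0 while both of these do not. The comparison with control 3 alone assumes that this lone array varies like the others. Without control 3, all GnRH arrays are high in Xist and both controls are low, so that treatment and this division cannot be told apart in any value given without control 3. The fit of all arrays is divided in the same way in part, since controls 1 and 2 are low in Xist and only control 3 is high. Hormone transcripts of the anterior lobe were bright in every array: the growth hormone gene Gh1 lay at 14.09 to 14.18 with GnRH and 14.20 to 14.25 in controls, and the LH beta subunit gene Lhb at 12.38 to 12.71 with GnRH and 12.03 to 12.63 in controls.

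Marker lists of pituitary and other cell types differed between the groups in part. The summed intensity (as log2) of 6 posterior lobe and glia markers was 8.87 to 9.51 with GnRH and 9.59 to 10.09 in controls, and that of 5 of 6 folliculostellate and stem-like markers was 9.62 to 9.96 with GnRH and 10.004 to 10.288 in controls. Both lists hold Gfap, which differed by -1.97, while the other 4 folliculostellate markers, S100b, Cx3cl1, Aldh1a2 and Sox2, differed by 0.15, 0.11, 0.074 and 0.018. The other posterior lobe and glia markers went both ways. Avp (-0.57) and Oxt (-0.43) lay below 0, and Nefl (0.45), Nefm (0.094) and Aqp4 (0.050) above, with Avp and Nefl free of overlap. The sum of 3 somatotrope markers, 14.13 to 14.21 with GnRH and 14.23 to 14.28 in controls, is nearly that of Gh1 (-0.080), whereas Pou1f1 differed by 0.58 without overlap and Ghrhr by 0.018. The sum of 3 lactotrope markers was 14.19 to 14.24 with GnRH and 13.85 to 14.17 in controls. It is nearly that of Prl, which differed by 0.24 and by 0.036 against control 3 alone. Drd2 rose past the adjusted threshold without overlap (0.56, limma adjusted p = 0.0399), and Esr1 differed by 0.32 with overlapping groups. Sums of the other lists overlapped, but single markers within them did not all stay together. Of 5 gonadotrope markers, 2 rose past the adjusted threshold by limma, Gnrhr (1.12) and Nr5a1 (0.54). The other gonadotrope markers overlapped between the groups and did not pass, with Lhb (0.34) and Cga (0.18) above 0 and Fshb (-0.30) below. Of 8 fibroblast and pericyte markers, 5 reached an unadjusted p under 0.05 in both directions, Col1a2 (0.61) and Col3a1 (0.39) above 0 and Dcn (-0.63), Lum (-0.54) and Pdgfra (-0.51) below, with sums of 9.91 to 10.33 with GnRH and 9.94 to 10.39 in controls. Endothelium, with 6 of 7 markers, had sums of 8.90 to 9.09 with GnRH and 8.99 to 9.02 in controls. Fewer cells of a type and less RNA per cell cannot be told apart in whole-organ samples, and the part of cell composition in the values below was not tested.

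No BMP or TGF-beta gene passed the test between GnRH and control cultures, and the fitted differences were small on the probe sets taken. With limma and Benjamini-Hochberg adjustment over all probe sets, 0 of 34 genes passed an adjusted p of 0.05, against 0.464% of all probe sets, and the lowest adjusted p was 0.0984. At an unadjusted p under 0.05 there were 3 genes, Tgfb1 and Smad4 on the higher side and Acvrl1 on the lower, which is 8.82% against 13.2% of the named genes. The groups did not overlap in 6 genes (17.6%), against 17.3% of the named genes. Both shares lay near or below the background. The median difference was 0.012, beside -0.0089 over all named genes, with 19 genes above 0 and 15 below.

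All 34 differences lay between -0.32 and 0.37, and 31 of them were smaller than 0.25. The 95% intervals show how large a difference the 3 arrays a group leave possible on the probe set taken for each gene. They lay within 1 log2 unit either way in 34 of 34 genes and within 0.5 in 30. Over the 25 other probe sets of these genes, they lay within 1 in 24 and within 0.5 in 21. The exception at 1 was another Bmp6 probe set, with 0.30 to 1.02. Standard errors of the 34 genes ran from 0.082 to 0.15. The pooled replicate SD had a median of 0.103 in these genes, beside 0.120 over all named genes.

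**Figure D1:**
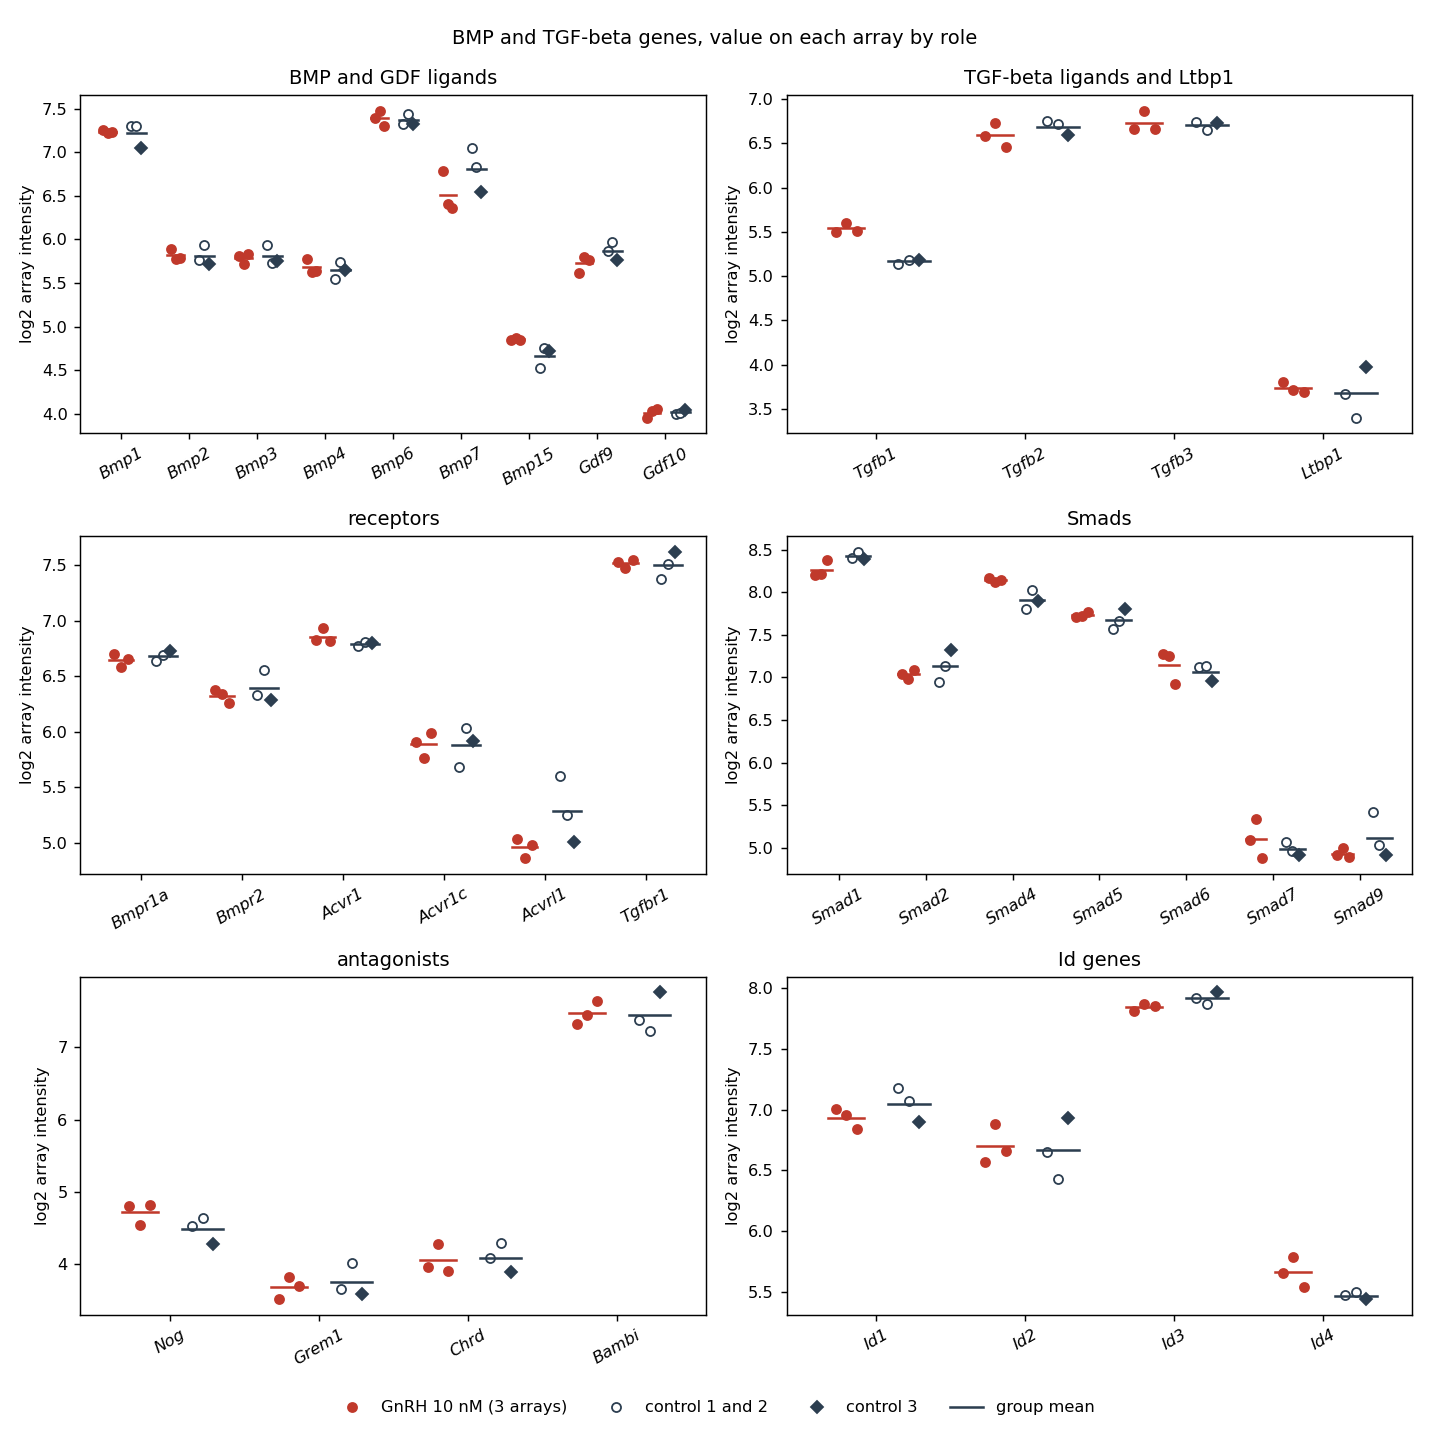
Log2 array intensity of the 34 genes by role, with 1 point per array, GnRH (3 arrays, filled red) left of control (controls 1 and 2 open, control 3 as a diamond) and a line at each group mean. Genes have different probes, so heights are comparable only within a gene. The 3 GnRH points of Tgfb1 and Smad4 lie above all 3 controls, and control 3 lies with the GnRH points for Acvrl1.

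Among the BMP and GDF ligands, 0 of 9 passed the threshold and 0 reached an unadjusted p under 0.05. Bmp6, a ligand that in mouse gonadotrope cells can raise transcription of the FSH beta subunit gene, had 7.40, 7.48 and 7.30 with GnRH and 7.33, 7.44 and 7.33 in controls on its brightest probe set. The groups overlapped, with a difference of 0.028 and a 95% interval of -0.17 to 0.22. Bmp7, another ligand of the BMP type, had 6.79, 6.41 and 6.36 with GnRH and 7.05, 6.83 and 6.54 in controls. Its GnRH values were mostly lower, but control 3 lay among them: the difference was -0.29 ± 0.15 (SE; limma adjusted p = 0.460), -0.43 without control 3 (limma adjusted p = 0.0756) and -0.025 against control 3 alone (limma adjusted p = 0.980).

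Bmp15, known as a ligand made by oocytes, had 4.84, 4.87 and 4.84 with GnRH and 4.52, 4.76 and 4.72 in controls. The groups did not overlap, but the probe set lay in the dimmest 25% of the array and the difference was 0.19 ± 0.092 (SE; limma adjusted p = 0.444). Gdf9, the other oocyte ligand, had a difference of -0.14, with a 95% interval of -0.35 to 0.065. The remaining 5 lay within 0.05 of 0. They were Bmp2 (0.0091) and Bmp4 (0.032), ligands that signal through Bmpr1a and Bmpr2, Bmp3 (-0.026) and its close relative Gdf10 (-0.0025), and Bmp1 (0.020), which despite its name is a metalloproteinase that cleaves procollagens and the antagonist chordin. The intervals of these 5 reached no further than -0.23 and 0.24.

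Bmp6 had 4 probe sets, whose differences did not share a sign. On probe set 2 by brightness it had 7.05, 7.68 and 6.98 with GnRH and 6.46, 6.64 and 6.64 in controls. All GnRH arrays lay above all controls, GnRH 2 furthest, with a difference of 0.66 ± 0.16 (SE) or 1.58-fold (limma adjusted p = 0.136). On probe set 3 it had 6.71, 6.86 and 6.72 with GnRH and 6.60, 6.52 and 6.41 in controls, again without overlap, at 0.26 ± 0.091 (SE; limma adjusted p = 0.299). Probe set 4 had 5.76, 5.76 and 5.76 with GnRH and 5.89, 5.66 and 5.95 in controls, a difference of -0.073. The difference on probe set 2 was 0.69 without control 3, where it passed the threshold (limma adjusted p = 0.0413), and 0.60 against control 3 alone (limma adjusted p = 0.312). The mean of the 4 probe sets differed by 0.22 (limma adjusted p = 0.329). The place of each probe set on the transcript is not analysed here.

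The TGF-beta ligands held the gene with the smallest p-value of the 34. Tgfb1, a ligand stored in the matrix in a latent form, had 5.50, 5.60 and 5.51 with GnRH and 5.13, 5.18 and 5.18 in controls. The groups were separated by more than the range within either, with control 3 level with the other controls. The difference was 0.37 ± 0.083 (SE), or 1.29-fold with a 95% interval of 1.14 to 1.47 (limma adjusted p = 0.0984). It missed the threshold, with 332 probe sets ranked at or above it by p-value. It was 0.38 without control 3 (limma adjusted p = 0.0255) and 0.36 against control 3 alone (limma adjusted p = 0.194). Leaving out any 1 array kept the difference between 0.34 and 0.39. The limma adjusted p rose to 0.255 without control 1 and 0.293 without control 2, and its highest value over all alternative settings was 0.406.

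Tgfb2 had 6.58, 6.73 and 6.46 with GnRH and 6.75, 6.72 and 6.60 in controls on its brighter probe set, a difference of -0.098 with a 95% interval of -0.31 to 0.12. Its other probe set had 5.523, 5.747 and 5.755 with GnRH and 5.933, 5.995 and 6.173 in controls. There the groups did not overlap and the difference was -0.36 ± 0.10 (SE; limma adjusted p = 0.201), with -0.50 against control 3 alone (limma adjusted p = 0.1002) and -0.29 without it (limma adjusted p = 0.0983). Tgfb3 had 6.66, 6.87 and 6.67 with GnRH and 6.74, 6.65 and 6.73 in controls, a difference of 0.025 with overlapping groups. Ltbp1, which tethers latent TGF-beta to the matrix, differed by 0.055 on a probe set in the dimmest 25%, where control 3 lay 0.44 above the mean of controls 1 and 2. The Ltbp1 difference was 0.20 without control 3 and -0.24 against control 3 alone.

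Promoter sequence is shown for Tgfb1 and Bmp6, 2 of the 4 ligand genes with a probe set on which the groups did not overlap (the others were Bmp15 and Tgfb2), for Id1, the usual BMP target, whose groups overlapped, and for Smad7, a feedback target that also overlapped; these were chosen after their values were seen. Each runs from 250 bases before to 50 after the start site, from RefSeq on build GRCr8, and capitals mark matches to any of 5 motifs on either strand: AP-1 (TGANTCA), the core of the cyclic AMP response element (TGACG), Egr (GCGNGGGCG), the Smad box (GTCTG) and the GC-rich Smad element of BMP targets (GGCGCC).
Tgfb1, chr1:90324062-90324361, plus strand: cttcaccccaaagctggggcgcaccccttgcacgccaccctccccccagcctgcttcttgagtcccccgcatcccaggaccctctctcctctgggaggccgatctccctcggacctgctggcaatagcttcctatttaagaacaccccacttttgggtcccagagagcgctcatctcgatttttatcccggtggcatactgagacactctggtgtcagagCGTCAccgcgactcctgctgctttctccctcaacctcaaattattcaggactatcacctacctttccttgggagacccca
Bmp6, chr17:26675212-26675511, minus strand: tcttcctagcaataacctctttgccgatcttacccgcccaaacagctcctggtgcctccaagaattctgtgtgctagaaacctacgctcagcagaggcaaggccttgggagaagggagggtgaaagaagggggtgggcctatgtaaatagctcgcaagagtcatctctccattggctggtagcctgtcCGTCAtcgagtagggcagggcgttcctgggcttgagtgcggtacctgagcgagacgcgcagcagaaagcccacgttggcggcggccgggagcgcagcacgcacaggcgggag
Id1, chr3:161671314-161671613, plus strand: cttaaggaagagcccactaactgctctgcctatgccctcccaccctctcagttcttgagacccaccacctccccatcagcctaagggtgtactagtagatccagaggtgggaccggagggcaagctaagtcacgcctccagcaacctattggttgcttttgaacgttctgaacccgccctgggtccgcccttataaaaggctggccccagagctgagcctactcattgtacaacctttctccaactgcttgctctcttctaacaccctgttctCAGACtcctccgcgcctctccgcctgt
Smad7, chr18:71263258-71263557, plus strand: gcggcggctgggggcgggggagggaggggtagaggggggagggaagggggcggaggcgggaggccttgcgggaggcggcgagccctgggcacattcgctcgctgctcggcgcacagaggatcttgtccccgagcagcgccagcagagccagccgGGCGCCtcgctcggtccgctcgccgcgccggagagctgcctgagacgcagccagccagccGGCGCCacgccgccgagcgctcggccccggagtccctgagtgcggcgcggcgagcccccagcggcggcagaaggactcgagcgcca

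Tgfb1 and Bmp6 each held 1 core of the cyclic AMP response element, on the reverse strand, beginning 30 and 62 bases before the start site, and no match to the other 4 motifs. Such a core was in 21.2% of 33469 promoters of this length. The promoters of the other ligand genes without overlap did not hold it: Bmp15 held 1 Smad box and Tgfb2 matched none of the 5 motifs. Id1 held 1 Smad box, a motif in 50.1% of promoters, and Smad7 held 2 GC-rich Smad elements, beginning 96 and 36 bases before the start site. Bmp1, Bmp2, Bmp7, Acvr1, Acvrl1 and Smad6 were not matched to a promoter. Of the 28 genes that were, 11 held the GC-rich Smad element (39.3%, against 11% of all promoters), 11 the Smad box (39.3% against 50.1%), 8 the cyclic AMP response core (28.6% against 21.2%), and 1 each the AP-1 motif (3.57% against 7.33%) and the Egr motif (3.57% against 4.98%). Their median GC content was 62.5%, against 51.7% over all promoters. In Bambi a cyclic AMP response core and a GC-rich element share a base, the 1 gene of the list in which matches to different motifs overlapped. A match describes these letters in this window and is not evidence of binding.

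**Figure D2:**
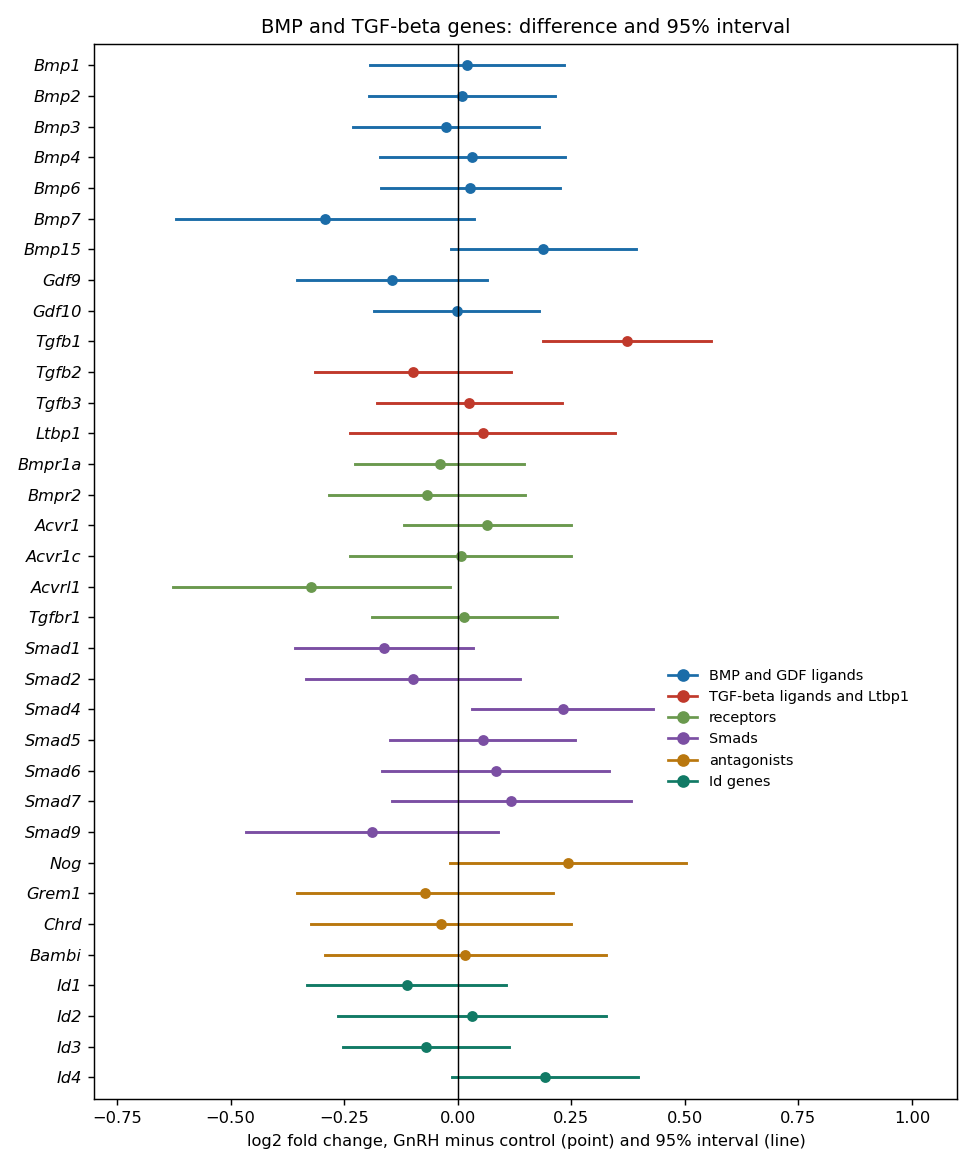
Difference between GnRH and control on the log2 scale for the 34 genes, coloured by role, as a point with its 95% interval from limma. The interval lies away from 0 for Tgfb1 (0.37), Smad4 (0.23) and Acvrl1 (-0.32), and none of these passed the adjusted threshold.

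The 6 receptors with a probe set differed by -0.32 to 0.065. Acvrl1, the type I receptor ALK1 known mainly from endothelial cells, had 5.04, 4.86 and 4.98 with GnRH and 5.60, 5.25 and 5.00 in controls. Controls 1 and 2 lay above all GnRH arrays and control 3 among them, so the difference of -0.32 ± 0.14 (SE; limma adjusted p = 0.380) was -0.46 without control 3, past the threshold (limma adjusted p = 0.0357), and -0.043 against control 3 alone (limma adjusted p = 0.956). Without control 1 it was -0.16. Of the endothelial markers, 0 of 6 reached an unadjusted p under 0.05, and the part of endothelium in the Acvrl1 values was not tested. Kdr, the main VEGF receptor of endothelium, had 7.55, 7.71 and 7.69 with GnRH and 7.63, 7.71 and 7.68 in controls. Pecam1, another of these markers, had 6.22, 6.21 and 5.96 with GnRH and 6.02, 5.90 and 6.47 in controls, with control 3 highest.

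Acvr1, the type I receptor ALK2, had 6.82, 6.93 and 6.82 with GnRH and 6.77, 6.81 and 6.80 in controls on its brightest probe set. The groups did not overlap, by a small margin, at a difference of 0.065 with a 95% interval of -0.12 to 0.25, and its other 2 probe sets differed by 0.074 and -0.095. Tgfbr1, the TGF-beta type I receptor ALK5, had 7.53, 7.48 and 7.54 with GnRH and 7.37, 7.51 and 7.62 in controls, a difference of 0.014, with -0.063 on its other probe set. The BMP type I receptor Bmpr1a (-0.040), the BMP type II receptor Bmpr2 (-0.067) and the nodal and activin receptor ALK7, Acvr1c (0.0061), had overlapping groups, and their intervals lay between -0.28 and 0.25.

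Of the 7 Smads, Smad4, the partner shared by the BMP and TGF-beta branches, came nearest to a call. It had 8.17, 8.11 and 8.14 with GnRH and 7.80, 8.03 and 7.89 in controls. All GnRH arrays lay above all controls, and the difference was 0.23 ± 0.090 (SE) or 1.17-fold, with a 95% interval of 1.02 to 1.35 (limma adjusted p = 0.336). Its other probe set gave a like value, 0.24 ± 0.11 (SE; limma adjusted p = 0.418), from 7.13, 7.31 and 7.20 with GnRH and 7.09, 7.08 and 6.75 in controls, although there control 3 lay 0.34 below the mean of the other controls. On the brighter probe set the difference was 0.22 without control 3 and 0.25 against control 3 alone.

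Smad1, a receptor Smad of the BMP branch, had 8.20, 8.21 and 8.37 with GnRH and 8.41, 8.48 and 8.39 in controls. All GnRH arrays lay below all controls, GnRH 3 by a small margin, with a difference of -0.16 ± 0.088 (SE; limma adjusted p = 0.490) and -0.11 on its other probe set, where the groups overlapped. Smad9, another receptor Smad of that branch, differed by -0.19 on both probe sets, and on the brighter one the difference was -0.29 without control 3 and 0.021 against control 3 alone. Smad5 differed by 0.055 on its brightest probe set and by -0.041, -0.14 and -0.083 on the others. Smad2, on the TGF-beta side, differed by -0.098, from 7.04, 6.98 and 7.09 with GnRH and 6.95, 7.13 and 7.32 in controls, and control 3 was the highest array. The inhibitory Smads Smad6 (0.083) and Smad7 (0.12) had overlapping groups, and the signs of their differences changed between their 4 and 3 probe sets, within -0.12 and 0.12.

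The antagonists gave no call, and 3 of the 4 lay in the dimmest 25% of the array. Nog, which encodes the BMP trap noggin, had 4.81, 4.55 and 4.82 with GnRH and 4.53, 4.64 and 4.28 in controls. The groups overlapped through GnRH 2, the difference was 0.24 ± 0.12 (SE; limma adjusted p = 0.436), and it was 0.14 without control 3 and 0.45 against control 3 alone. Grem1 (gremlin) had 3.52, 3.82 and 3.71 with GnRH and 3.66, 4.02 and 3.59 in controls, a difference of -0.073, and Chrd (chordin) differed by -0.037. Bambi, a membrane decoy of the type I receptors without a kinase domain, had 7.32, 7.44 and 7.64 with GnRH and 7.37, 7.22 and 7.76 in controls, a difference of 0.017. Control 3 was its highest array, 0.46 above the mean of controls 1 and 2, the largest such gap of the 34 genes. The Bambi difference was 0.17 without control 3 and -0.29 against control 3 alone.

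The Id genes, transcriptional targets in the list beside the feedback inhibitors Smad6, Smad7 and Bambi, did not pass the threshold in either direction. Id1 had 7.004, 6.956 and 6.843 with GnRH and 7.176, 7.070 and 6.896 in controls. The GnRH arrays lay below controls 1 and 2 and on both sides of control 3, at a difference of -0.11 with a 95% interval of -0.33 to 0.11, and 0.039 against control 3 alone. The Smad box printed for its promoter begins at base 24 after the start site. Id3 had 7.81, 7.87 and 7.86 with GnRH and 7.92, 7.87 and 7.97 in controls, a difference of -0.071 with a 95% interval of -0.25 to 0.11, one of the narrowest of the list. For all 4 Id genes, on the probe set of highest mean, the intervals did not reach 0.5 on the log2 scale in either direction.

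Id2 had 6.57, 6.88 and 6.66 with GnRH and 6.65, 6.43 and 6.93 in controls on its brighter probe set, a difference of 0.031. Its control values spread more widely than its GnRH values. That difference was 0.16 without control 3 and -0.23 against control 3 alone. On the other probe set Id2 had 5.58, 6.03 and 5.89 with GnRH and 5.41, 5.62 and 5.61 in controls. The groups overlapped there only through GnRH 1, with a difference of 0.29 ± 0.12 (SE; limma adjusted p = 0.382). Id4, which like the other Ids holds partner helix-loop-helix proteins off DNA, had 5.65, 5.79 and 5.54 with GnRH and 5.47, 5.50 and 5.44 in controls. All GnRH arrays lay above all controls, by 0.19 ± 0.092 (SE; limma adjusted p = 0.435), while its other 3 probe sets overlapped and differed by 0.11, -0.085 and -0.044.

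**Figure D3:**
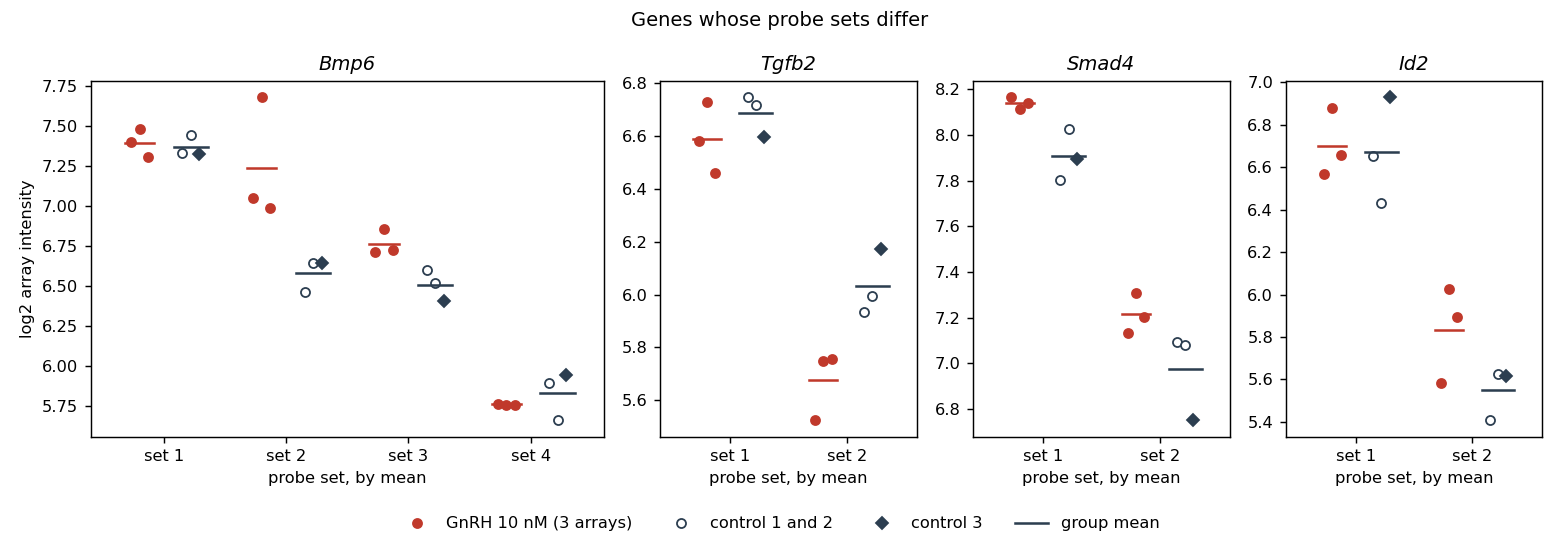
Log2 array intensity on every probe set of Bmp6, Tgfb2, Smad4 and Id2, ordered by mean, with GnRH arrays (filled red) left of controls (controls 1 and 2 open, control 3 as a diamond) and lines at group means. The groups are apart on probe sets 2 and 3 of Bmp6 (0.66 and 0.26) and on probe set 2 of Tgfb2 (-0.36) but not on the brightest of either gene, while Smad4 has 0.23 and 0.24 on its 2 probe sets.

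Of the 34 genes, 15 had more than 1 probe set. In 8 of them the differences did not share a sign, namely Acvr1, Bmp2, Bmp6, Id4, Smad5, Smad6, Smad7 and Tgfbr1. Over the 25 probe sets not used above, 4 reached an unadjusted p under 0.05 (16%, beside 13.2% of the named genes), and 0 passed the adjusted threshold. They were the Bmp6 pair, the dimmer Tgfb2 and the dimmer Id2 probe sets.

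Without control 3, the array that stands apart, 2 genes passed the adjusted threshold, Tgfb1 (0.38) and Acvrl1 (-0.46), or 5.88% against 7.44% of all probe sets under that setting, in which the high and low Xist arrays are also divided by treatment. Then 6 of 34 genes reached an unadjusted p under 0.05 (17.6%, against 26.9% of the named genes), and 14 had groups that did not overlap (41.2%, against 46.2%). Against control 3 alone, 0 passed (background 1.17%) and 3 reached an unadjusted p under 0.05 (8.82%, against 13.7%), Tgfb1 (0.36), Smad2 (-0.29) and Nog (0.45).

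Other genes of the same pathway were looked at from a list of 52, of which 39 had a probe set. By limma 0 of 39 passed the threshold, while 10 (25.6%, against 13.2% of the named genes) reached an unadjusted p under 0.05, 5 higher and 5 lower with GnRH, and in 11 (28.2%, against 17.3%) the groups did not overlap. Ppm1a, a phosphatase that can remove the activating phosphates of receptor Smads, had 7.55, 7.73 and 7.51 with GnRH and 6.87, 7.04 and 7.20 in controls. All GnRH arrays lay above all controls, at 0.56 ± 0.11 (SE) or 1.47-fold (limma adjusted p = 0.0587). Tgif1, a corepressor that binds Smad2 and Smad3, ran the other way, with 8.33, 8.27 and 8.42 with GnRH and 8.67, 8.79 and 8.85 in controls, a difference of -0.43 ± 0.090 (SE; limma adjusted p = 0.0815). Control 3 was the control nearest to the GnRH arrays for Ppm1a (0.40 against it alone) and the farthest for Tgif1 (-0.51).

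**Figure D4:**
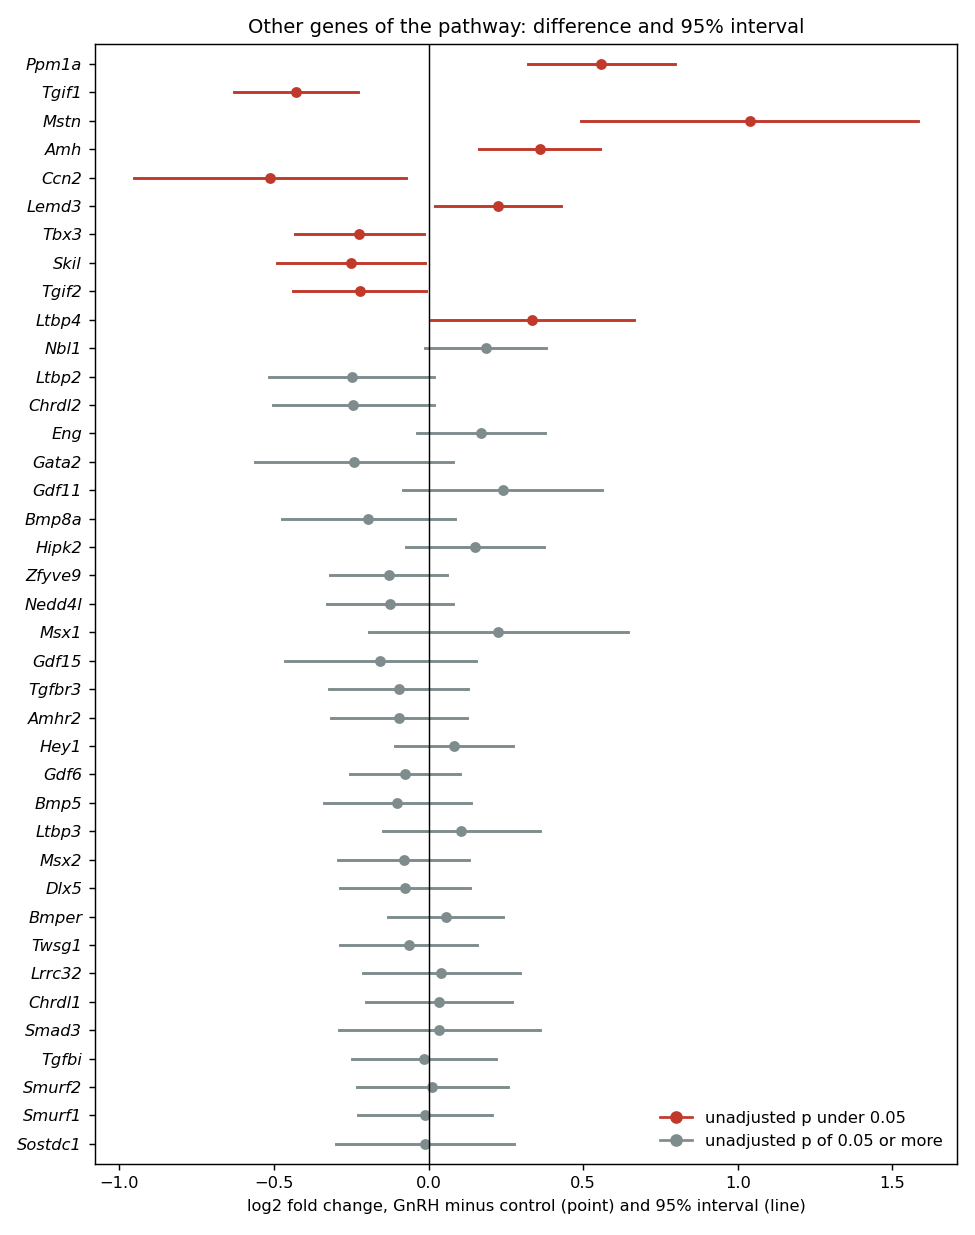
Difference between GnRH and control on the log2 scale with its 95% interval for 39 other genes of the pathway, in order of p-value, with an unadjusted p under 0.05 in red. The 10 red genes divide into 5 above and 5 below 0, and the interval of Mstn (0.49 to 1.58) is the widest.

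Mstn, the muscle growth inhibitor myostatin, had 4.91, 5.00 and 5.98 with GnRH and 3.95, 4.40 and 4.42 in controls, a difference of 1.04 ± 0.25 (SE; limma adjusted p = 0.120) on a probe set in the dimmest 25%, with GnRH 3 far above the others. Amh, anti-Müllerian hormone, had 4.47, 4.39 and 4.30 with GnRH and 4.07, 3.96 and 4.07 in controls, a difference of 0.36 (limma adjusted p = 0.133), likewise from a dim probe set. Ccn2, a matrix protein gene induced by TGF-beta in many cells, had 7.70, 7.21 and 6.81 with GnRH and 7.86, 7.93 and 7.47 in controls, a difference of -0.51 (limma adjusted p = 0.334) with overlapping groups. Lemd3, an inner nuclear membrane protein that binds receptor Smads, had 6.45, 6.50 and 6.42 with GnRH and 6.11, 6.23 and 6.35 in controls, a difference of 0.22 (limma adjusted p = 0.368). The other TGF-beta receptor Smad, Smad3, had 7.75, 7.70 and 7.77 with GnRH and 7.44, 7.58 and 8.09 in controls, so that its difference of 0.035 was 0.23 without control 3 and -0.35 against it alone. Without control 3, 7 of these 39 genes passed the adjusted threshold (17.9%, against 7.44% of all probe sets). In that fit the high and low Xist arrays are also divided by treatment. By limma 12 reached an unadjusted p under 0.05 in that fit (30.8%, against 26.9% of the named genes). These backgrounds differ, and the share of named genes past the adjusted threshold was not counted in that fit. Of the 7 genes, Ppm1a (0.64), Tgif1 (-0.39), Mstn (1.12) and Amh (0.38) kept their sign against control 3 alone, at 0.40, -0.51, 0.87 and 0.32. Ltbp2 (-0.37), Chrdl2 (-0.37) and Bmp8a (-0.34) did not, at 0.0042, 0.021 and 0.10.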

How the data were processed

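Transcripts were measured in 6 samples from rat pituitary organ culture, 3 with 10 nM GnRH and 3 controls, grouped by title. Per the labels' protocols, Trizol-extracted, column-cleaned total RNA was made into biotin-labelled cRNA. The authors deposited array intensity values on a linear scale. The submitters' processing notes name RMA as the method, and the sources used here give no version or filter. The table has no detection calls, and 3 arrays a group limit the precision.

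Values were turned into log2 with no pseudocount and fitted over 31042 probe sets with limma 3.58.1 in R 4.3.3 (lmFit, eBayes, 2-sided, no covariate, no filter), with Benjamini-Hochberg adjustment over all probe sets and a threshold of 0.05. Symbols of 20826 probe sets with 1 symbol were updated by gene identifier to GRCr8. A dim probe set had a mean under the lower quartile, 4.96. The fit was tested on simulated data. Promoters were searched in Python 3.11.15.

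The members, the other pathway genes, the markers and the alternatives were chosen with earlier results of these data known. By the rule for named genes, per-array values are given for members at an unadjusted p under 0.05, the Id genes and, by role, the 2 members with the smallest p-values and the one with the highest mean, plus the 6 other pathway genes with the smallest p-values; Smad2, Smad3, Xist and the markers named were added after their values were seen. Counts at an unadjusted p without control 3 and against it alone were added after seeing the data, and so were Ltbp2, Chrdl2 and Bmp8a. Alternatives covered normalization, filtering, variance models, array weights, a replicate block, each array left out, control 3 alone as control, gene summaries and the threshold.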

Additional observations from a re-analysis of the deposited data

How the results depend on the processing

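The count of 0 genes past the threshold was also found in 15 of 18 alternatives. It was 1 (Tgfb1, 0.36) with array weights, 1 (Tgfb1) at an adjusted p under 0.10, and 0 to 2 with 1 array left out, the 2 coming without control 3. Of 596 recomputed differences of single genes, 592 kept their side of the threshold; 14 genes kept their sign throughout and 20 changed it at least once, Tgfb1, Smad4 and Acvrl1 being among the 14. The median difference over the 34 genes was -0.038 with each gene's probe set of smallest p-value and otherwise moved by less than the spread between arrays, 0.028. The count over all probe sets was 144 and became 90 with quantile normalization repeated, 93 with cyclic loess, 3020 with array weights (control 3 had the lowest weight, 0.298), 362 against control 3 alone, 341 at an adjusted p under 0.10 and 20 to 2309 with 1 array left out. Each array moved this count by over 1.5 times: it was 51, 20 and 65 without GnRH 1, 2 and 3, and 69, 28 and 2309 without control 1, 2 and 3. Causes were not tested. Whether equal replicate numbers mark paired samples could not be settled. Deviations from the group mean correlated at 0.159, -0.049 and 0.156 for equally numbered arrays. GnRH 1 correlated best with control 2 (0.180) and GnRH 3 best with control 3. Deviations from a mean of 3 arrays are tied to each other, so these correlations cannot decide it. With the replicate block the fit called 215 probe sets and 0 of the 34 genes. Leaving out probe sets under the median brightness left 18 of the 34 genes, without Tgfb1 and Acvrl1, and 0 passed. Signal limits Bmp15, Gdf10, Ltbp1, Nog, Grem1 and Chrd, whose probe sets were in the dimmest 25%, so that a change in them could be understated.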

Other observations

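Among the controls themselves, 15 of the 34 genes were higher and 19 lower in control 3 than in the mean of controls 1 and 2, with a median of -0.048, beside -0.020 over all named genes. Bambi (0.46), Ltbp1 (0.44) and Id2 (0.39) lay furthest above in control 3, and Acvrl1 (-0.42), Bmp7 (-0.40) and Smad9 (-0.31) furthest below. The corresponding differences between the GnRH and control means were 0.017, 0.055 and 0.031, and -0.32, -0.29 and -0.19. The genes were picked by their gaps, and control 3 is part of the control mean. Gaps and differences are therefore tied, and which is wider is no separate result. Control 3 is a single array, so these gaps have no replicate check.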
